A study of Mus musculus with 18 samples.

Results

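Collagens are the chains of the main structural proteins of the extracellular matrix, and their messenger RNAs were followed here in sorted cells labelled as from mouse colon tumours. The genes were all those whose symbol on the array had the form Col, a number, the letter a and a number. That rule found 91 probes for 41 collagen genes, among the 45281 probes and 19057 named genes measured. Each gene was represented by the probe with the highest mean signal over all arrays. RefSeq held 44 protein-coding genes named in this way, and the 3 without a probe here were Col6a3, Col12a1 and Col20a1.

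By their labels, the cells came from colon tumours of 3 mice, FatK1, FatK5 and FatK7, of genotype Fapbl-Cre;Apc2lox14/+;tet-KrasLSL-G12D/+ on strain C57Bl/6, aged 17 weeks. They had been selected with a CDCP1 antibody on magnetic MicroBeads and were kept with Dox in all groups. For 24 h, 1 arm of each mouse received an shRNA, a short hairpin RNA that lowers a target messenger RNA, directed at the transcription factor Foxd3, and the other arm was untreated. Each of the 6 groups was hybridised to 3 Illumina bead arrays, 18 in all. Whether a group's 3 arrays were separate cultures was not stated, so a p-value within a mouse label speaks of array spread alone. The labels did not say in which cells the Cre transgene was active, and no control hairpin was named.

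Signals were background-subtracted intensities in arbitrary units, so a probe without message read near 0 or below. The arrays detected between 17289 and 19993 probes each at a detection p-value below 0.05, with mean signals between 181 and 294. The female-specific transcript Xist split the arrays of 2 mice. It was bright, between 665 and 1470, on 8 arrays, namely the 3 shFoxd3 arrays and untreated array 2 of FatK1 and of FatK5. The other 10 arrays, among them untreated arrays 1 and 3 of the same mice, lay between -13.3 and 13.5 for Xist and between 328 and 872 for the Y-linked gene Eif2s3y. The untreated arrays of FatK1, and those of FatK5, thus differ in a sex-linked transcript and were not repeats of 1 RNA, and the arrays under either label do not match a single animal. FatK1, FatK5 and FatK7 are used below as the labels' mice. Where the spread in FatK7 comes from was not stated, and there it may be technical. Results within FatK1 and FatK5 are therefore given with and without untreated array 2. The labelled tissue was also checked. The epithelial adhesion gene Epcam was detected on 0 of 18 arrays, the colon epithelial gene Krt20 on 1, Cdh1 on 11 and Lgals4 on 18. Transcripts of brown fat, skeletal muscle and liver, given below, were bright under different mouse labels, so the colon label is in doubt. Foxd3 itself was detected on 1 of 18 arrays, with signals between -10.3 and 16.5, so its probe gave no check of the hairpin.

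Collagen chains assemble in threes into a triple helix, and the family is divided by the structures the helices build. Fibrillar collagens form the banded fibres of tendon, skin and stroma and are made mainly by fibroblasts and other mesenchymal cells. Basement membrane collagens form sheets under epithelia and around vessels, muscle fibres and fat cells, and the remaining classes make beaded filaments, hexagonal networks, coats on fibrils or membrane-anchored proteins.

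Of the 41 collagens, 31 were detected on at least 3 arrays and entered the tests, and 10 did not. Detection was complete, on all 18 arrays, for 11 collagens, and 26 were detected on every array of at least 1 group. On all 6 arrays of a mouse, 20 collagens were detected in FatK1, 22 in FatK5 and 11 in FatK7. By contrast 11, 4 and 17 collagens were detected on none of the 6 arrays of FatK1, FatK5 and FatK7. FatK7 thus had the fewest collagens with a complete signal. By class, 10 of 11 fibrillar and 8 of 10 basement membrane collagens were tested, with 2 of 5 beaded filament, 2 of 3 network, 4 of 7 fibril-associated and 3 of 3 transmembrane chains and both Col26a1 and Col28a1. The 10 that did not enter were Col11a1, Col19a1, Col9a2, Col9a3, Col10a1, Col4a3, Col4a6, Col6a4, Col6a5 and Col6a6. Of these, Col9a3, Col4a6, Col6a4 and Col6a5 were detected on no array, with signals of at most 14.0. Col4a3, Col6a6, Col11a1 and Col19a1 were each detected on 2 arrays, with signals of at most 25.8.

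**Figure D1:**
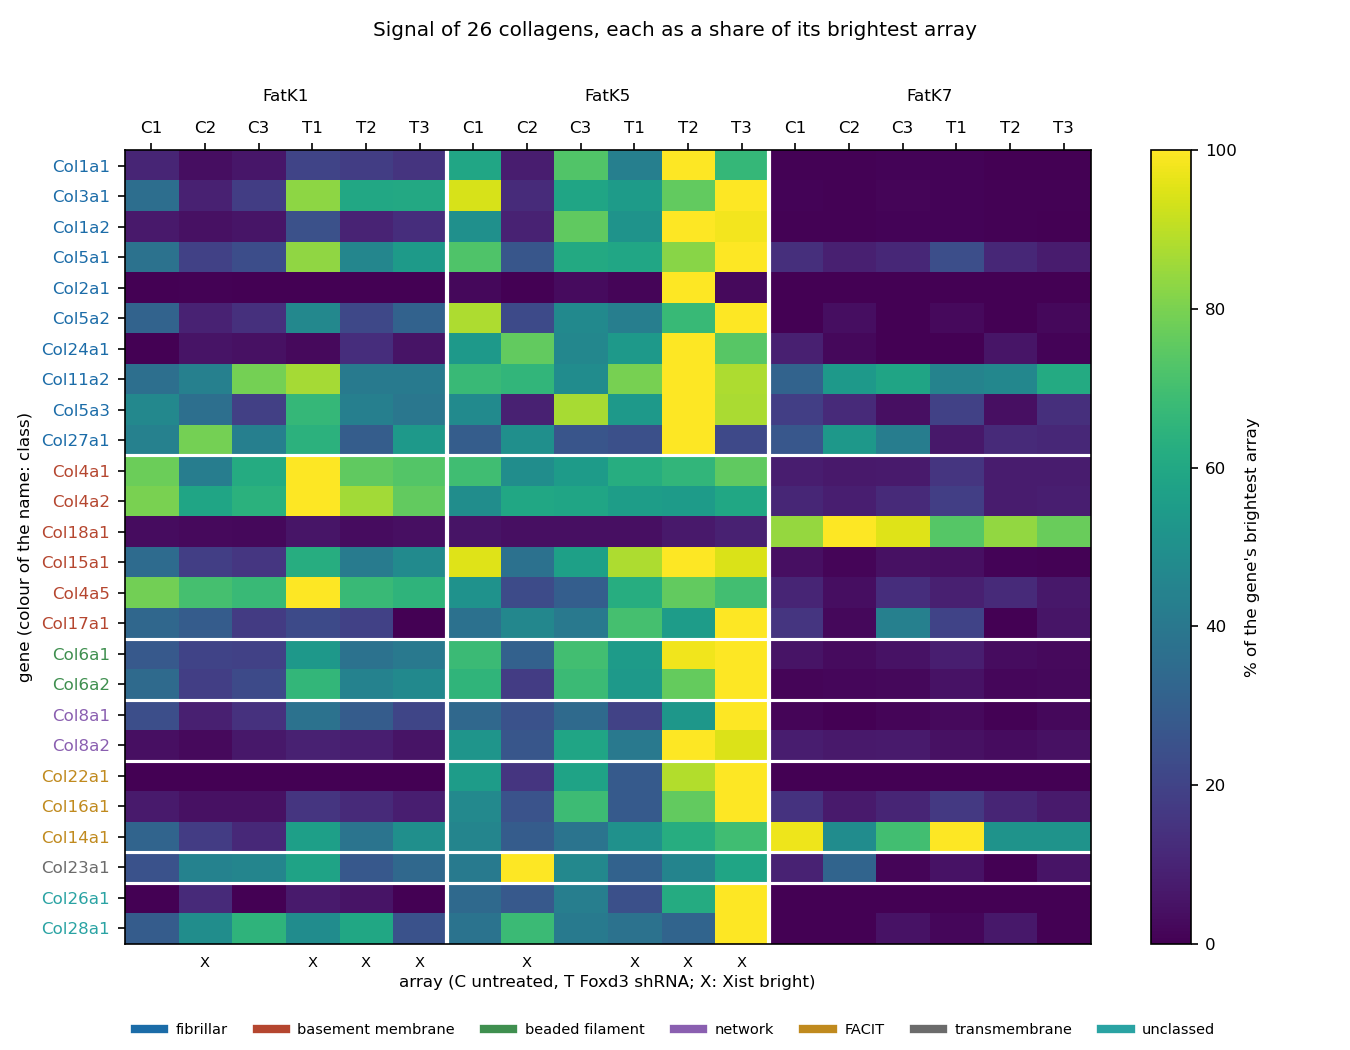
Signal of the 26 collagens detected on every array of at least 1 group, shown for each of the 18 arrays as a percentage of that gene's own brightest array, with signals below 0 set to 0. Columns are arrays grouped by mouse and arm, X marks the 8 arrays with bright Xist, yellow is the gene's brightest array. The FatK7 columns are darkest for most genes and bright for Col18a1 and Col14a1.

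The first comparison was between the untreated cells of the 3 mice, which asked how much collagen message the cells of each mouse held without the hairpin. The collagens differed widely. Of 31 tested, 13 differed between FatK5 and FatK1, 12 of them higher in FatK5, against 42.0% of all probes, of which 18.8% were higher and 23.2% lower. Between FatK7 and FatK1, 15 differed, 13 of them lower in FatK7, against 55.9% of all probes, 25.1% higher and 30.8% lower. Between FatK7 and FatK5, 21 differed, 20 of them lower in FatK7, against 63.6% of all probes, 30.8% higher and 32.8% lower. The number of collagens called was thus near the share of all probes in each comparison, and the directions were more uneven than over all probes. The median log2 difference of the 31 collagens was 0.72 for FatK5 minus FatK1, -0.27 for FatK7 minus FatK1 and -1.49 for FatK7 minus FatK5. Over all probes it was -0.03, -0.08 and -0.05. The 3 comparisons share groups of arrays and are given side by side only. They compare 1 mouse label with another, on the log2 scale with an offset of 16, which understates differences of dim genes. In sorted but mixed RNA, fewer cells of a type and less RNA per cell cannot be told apart.

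**Figure D2:**
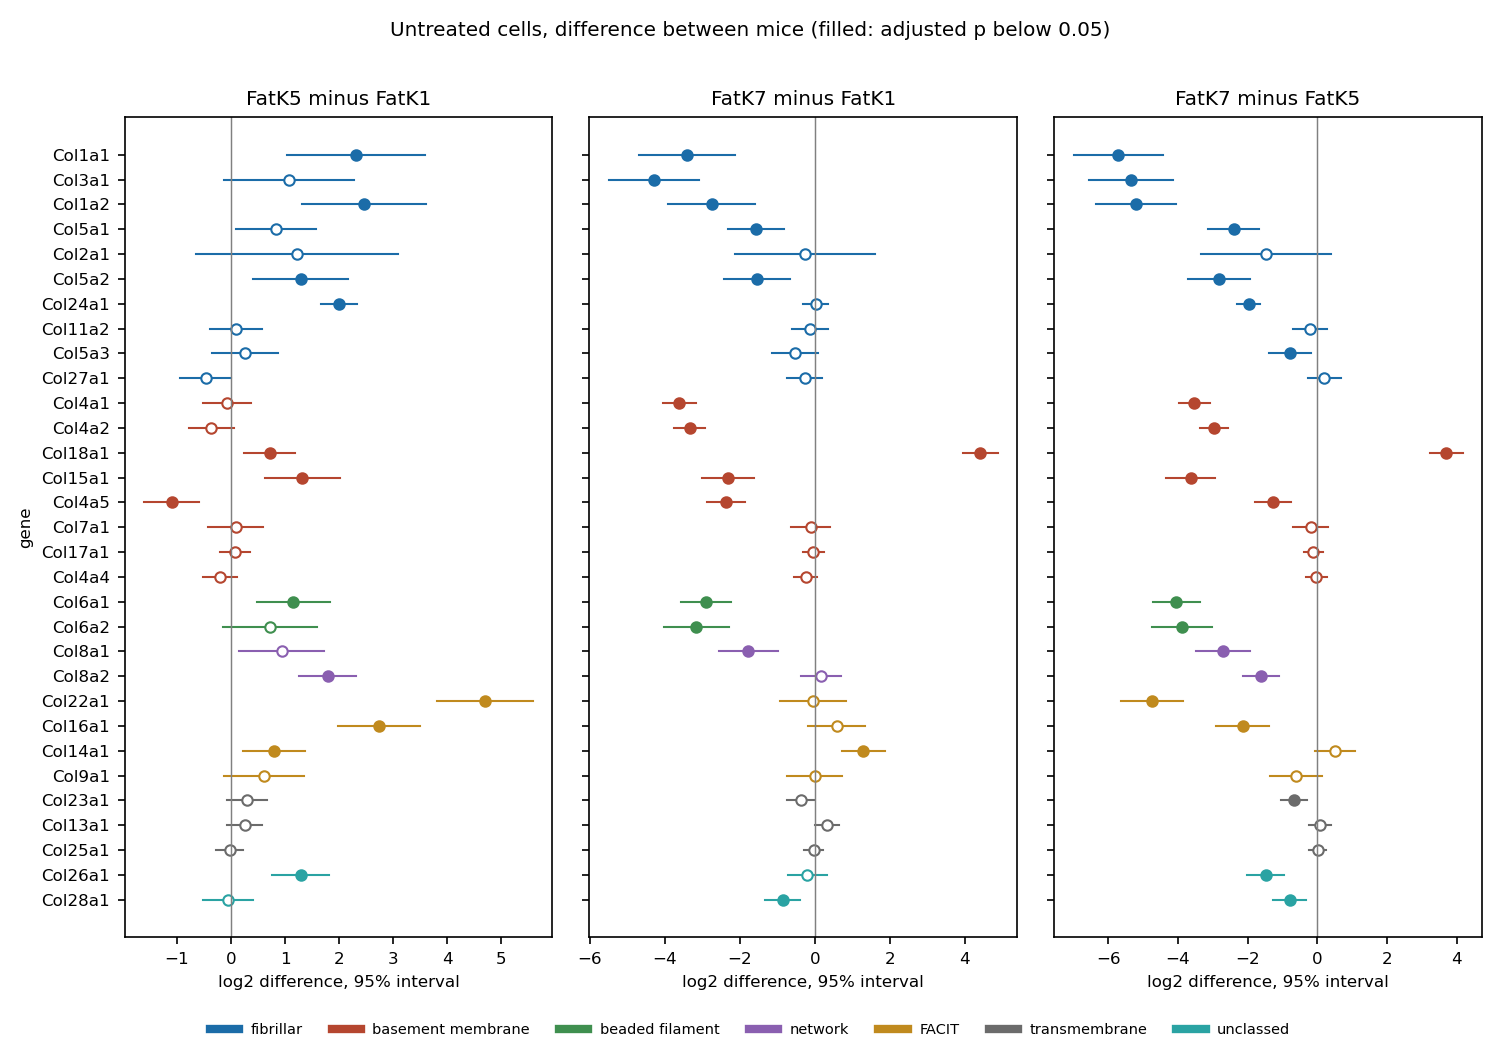
Log2 difference between untreated cells of pairs of mice for the 31 tested collagens, ordered by class, with 95% confidence intervals, n = 3 arrays per group. Filled points passed an adjusted p of 0.05, 13, 15 and 21 of 31 in the 3 panels, and most filled points of FatK7 lie below 0, with Col18a1 far above.

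Markers of other cells also differed between the mice, though not always in the direction of the collagens. The summed signal of 7 fibroblast markers ranged from 7283 to 8606 on the untreated arrays of FatK1, 13271 to 16880 in FatK5 and 8473 to 12204 in FatK7. Of these 7, 3 were higher and 1 lower in FatK5 than in FatK1, 5 were lower in FatK7 than in FatK1, and all 7 were lower in FatK7 than in FatK5. Over all probes these shares were 18.8%, 23.2%, 30.8% and 32.8%. The 6 smooth muscle and pericyte markers summed to 1726 to 2578, 6371 to 11965 and 388 to 957, and the 5 endothelial markers to 1571 to 1649, 1402 to 2088 and 431 to 499, in FatK1, FatK5 and FatK7. Thus FatK7 had the lowest sums of both vessel and smooth muscle markers. Tissue transcripts from outside the colon also differed. The 5 brown fat markers summed to 28975 to 49144 in FatK1, 7294 to 12634 in FatK5 and 36.5 to 273 in FatK7. The 5 skeletal muscle markers summed to 220 to 10695 in FatK1, 97613 to 103470 in FatK5 and -7.54 to 14.9 in FatK7, where 4 of the 5 were detected on no array. The 5 liver markers summed to 20.7 to 33.6, 18.9 to 49.6 and 48986 to 57571. The 4 hepatic stellate markers, which liver fibroblast-like cells express, summed to 174 to 663 in FatK1, 3702 to 7546 in FatK5 and 1834 to 2988 in FatK7. Of these, Lrat and Reln were higher in FatK7 than in FatK1 by 3.96 (adjusted p = 2.64e-14) and 5.08 (adjusted p = 2.29e-11). Des, also a muscle gene, differed by -2.19 (adjusted p = 0.000126), and Hand2 did not enter the tests. Against FatK5, the differences of Lrat, Reln and Des in FatK7 were 4.04, 2.57 and -6.17. The 5 tendon and cartilage markers summed to 15.9 to 155 in FatK1, 215 to 344 in FatK5 and 329 to 465 in FatK7. Of these, the tendon gene Scx was higher in FatK5 than in FatK1 by 2.75 (adjusted p = 2.49e-09), and Comp by 1.42 (adjusted p = 0.027). Sox9 differed by -0.14 (adjusted p = 0.872) there, and was higher in FatK7 than in FatK5 by 1.56 (adjusted p = 0.0173, limma). The part of these cells in the collagen differences was not tested.

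Among the fibrillar collagens, type I and type III dominated the differences. Col1a1 encodes the main chain of type I collagen, the chief protein of stroma, tendon and bone. Its signals on untreated arrays 1, 2 and 3 were 1036, 361 and 609 in FatK1, a mean of 669 ± 342 (SD, n = 3). They were 5922, 809 and 7257 in FatK5, a mean of 4663 ± 3404, and 70.8, 42.9 and 81.5 in FatK7, a mean of 65.1 ± 19.9. FatK7 lay below every array of the other mice, while array 2 of FatK5 fell inside the range of FatK1. FatK5 exceeded FatK1 by 2.31 ± 0.61 (SE) on the log2 scale (adjusted p = 0.00445, limma). The difference of FatK7 minus FatK1 was -3.41 ± 0.61 (adjusted p = 9.15e-05) and of FatK7 minus FatK5 -5.72 ± 0.61 (adjusted p = 1.18e-07). Without untreated array 2 of FatK5 these differences with FatK5 became 3.43 and -6.83, and without its array 3 they became 1.67 and -5.07.

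Col1a2, the second chain of type I collagen, gave 268, 180 and 230 on the untreated arrays of FatK1, 1984, 370 and 2978 in FatK5 and 26.1, 20.9 and 31.6 in FatK7. The 3 mice did not overlap. The log2 differences were 2.46 ± 0.55 for FatK5 minus FatK1 (adjusted p = 0.00114), -2.75 for FatK7 minus FatK1 (adjusted p = 0.000276) and -5.21 for FatK7 minus FatK5 (adjusted p = 9.86e-08, limma). Without array 2 of FatK5 the values involving FatK5 were 3.47 and -6.22, and without array 3 they were 1.78 and -4.53. Col3a1, the type III chain of elastic and healing tissue, read 1468, 367 and 740 in FatK1, 3823, 507 and 2395 in FatK5 and 35.3, 21.2 and 48.6 in FatK7. FatK1 and FatK5 overlapped, and their difference of 1.07 ± 0.57 did not pass (adjusted p = 0.15). FatK7 lay lower than both, by a log2 difference of -4.28 against FatK1 (adjusted p = 3.31e-06) and -5.36 against FatK5 (adjusted p = 1.33e-07). The latter was -6.33 without array 2 of FatK5 and -4.72 without its array 1.

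The upstream sequences of Col1a2 and Col3a1 are shown because these fibrillar genes differed in the same direction between FatK7 and the other mice. No such window was in the RefSeq table used for Col1a1. Windows ran from 250 bases before to 50 after the gene start, 300 bases each, in RefSeq of build GRCm38.p6. A window was found for 33 of the 41 collagens, 36 windows in all. Col1a2 lies at chr6:4505368-4505667 on the plus strand and Col3a1 at chr1:45311288-45311587 on the plus strand. Capitals mark CCAAT, the CCAAT box, and TATAAA, the TATA box, on either strand.
Col1a2: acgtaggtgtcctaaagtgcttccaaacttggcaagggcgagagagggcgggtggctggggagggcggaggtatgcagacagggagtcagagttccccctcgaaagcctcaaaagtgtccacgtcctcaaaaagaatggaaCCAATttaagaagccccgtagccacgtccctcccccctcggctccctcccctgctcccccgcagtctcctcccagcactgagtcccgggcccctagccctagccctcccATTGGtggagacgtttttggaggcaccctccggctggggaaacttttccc
Col3a1: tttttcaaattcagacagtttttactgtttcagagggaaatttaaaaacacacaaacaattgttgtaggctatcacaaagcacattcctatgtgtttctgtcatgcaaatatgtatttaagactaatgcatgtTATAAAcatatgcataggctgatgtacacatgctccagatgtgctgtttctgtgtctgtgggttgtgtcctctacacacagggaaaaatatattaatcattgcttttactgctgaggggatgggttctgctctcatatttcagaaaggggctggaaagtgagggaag
The Col1a2 window held CCAAT once on each strand and a GC content of 61.0%, whereas the Col3a1 window held 1 TATAAA, no CCAAT and 37.7% GC, against a median of 52.7% over 32851 promoters. CCAAT was in 13 of 36 collagen windows and in 37.4% of all promoters, and TATAAA in 5 and in 13.6%. The GC box GGGCGG was in 23 of 36 and 35.7% of all, and TGTTT, the core of forkhead motifs, in 11 of 36 and 50.5%. These are matches of letters on both strands, not sites.

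The minor fibrillar chains followed with smaller differences. Col5a1, which nucleates type I fibrils, read 443, 228 and 279 in FatK1, 855, 316 and 718 in FatK5 and 161, 106 and 133 in FatK7. FatK7 lay below both other mice, at a log2 difference of -1.56 ± 0.35 against FatK1 (adjusted p = 0.000909) and -2.40 against FatK5 (adjusted p = 7.96e-06), while FatK5 minus FatK1 was 0.84 (adjusted p = 0.0656). Col5a2, its partner chain, read 107, 32.3 and 46.8 in FatK1 and 295, 75.9 and 159 in FatK5, higher in FatK5 by 1.29 ± 0.42 (adjusted p = 0.0185). It was not detected on any array of FatK7. For a gene undetected throughout a group, the difference is given as a lower bound, the brighter group's mean over the dimmest signal still detected on the dim arrays. FatK1 was at least 2.55-fold (adjusted p = 0.00435) and FatK5 at least 6.22-fold (adjusted p = 9.43e-06) above FatK7 for Col5a2. Its other tested probes were dimmer and had the same signs with smaller differences. For FatK7 minus FatK1 they gave -0.07 to -0.66, and none passed (adjusted p of 0.188 or above, limma). In the comparisons with FatK5 some of them passed and some did not. Col5a3, another type V chain, was at least 1.58-fold higher in FatK5 than in FatK7 (adjusted p = 0.0258), with signals of 6.58 to 70.8 over all 6 arrays of FatK5.

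Col24a1, a fibrillar chain known from developing bone, was detected on all 6 arrays of FatK5 and on 1 of the other 12, with FatK5 signals of 76.7, 109 and 66.4 untreated and 77.6, 143 and 106 with shFoxd3. In FatK1 its signals stayed between -0.124 and 18.6 and in FatK7 between -5.55 and 12.4. FatK5 was at least 3.5-fold above FatK1 (adjusted p = 5.57e-09) and at least 3.35-fold above FatK7 (adjusted p = 2.43e-09). Col11a2, a cartilage and ear chain that trims fibril width, was detected on all 18 arrays at 18.1 to 57.0, and no pair of mice passed the test. Col27a1, a cartilage fibrillar chain, spanned 16.5 to 44.1 in FatK1, 12.2 to 55.7 in FatK5 and 3.66 to 29.8 in FatK7, and also passed in no pair. A dimmer probe of Col27a1, at most 17.8, was higher in FatK7 than in FatK1 by 0.38 (adjusted p = 0.00969, limma). It exceeded FatK5 there by 0.60 (adjusted p = 0.000214), and a further probe passed in neither comparison. Col2a1, the main cartilage collagen, was bright on 1 array only, described below with the hairpin arm. In all, 4 of 10 tested fibrillar chains were higher in FatK5 than in FatK1, and 5 and 7 were lower in FatK7 than in FatK1 and FatK5. Over all probes these shares were 18.8%, 30.8% and 32.8%. With the probe that represented each gene, none of the 10 passed in the opposite direction, and their median differences were 1.14, -1.03 and -2.19.

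**Figure D3:**
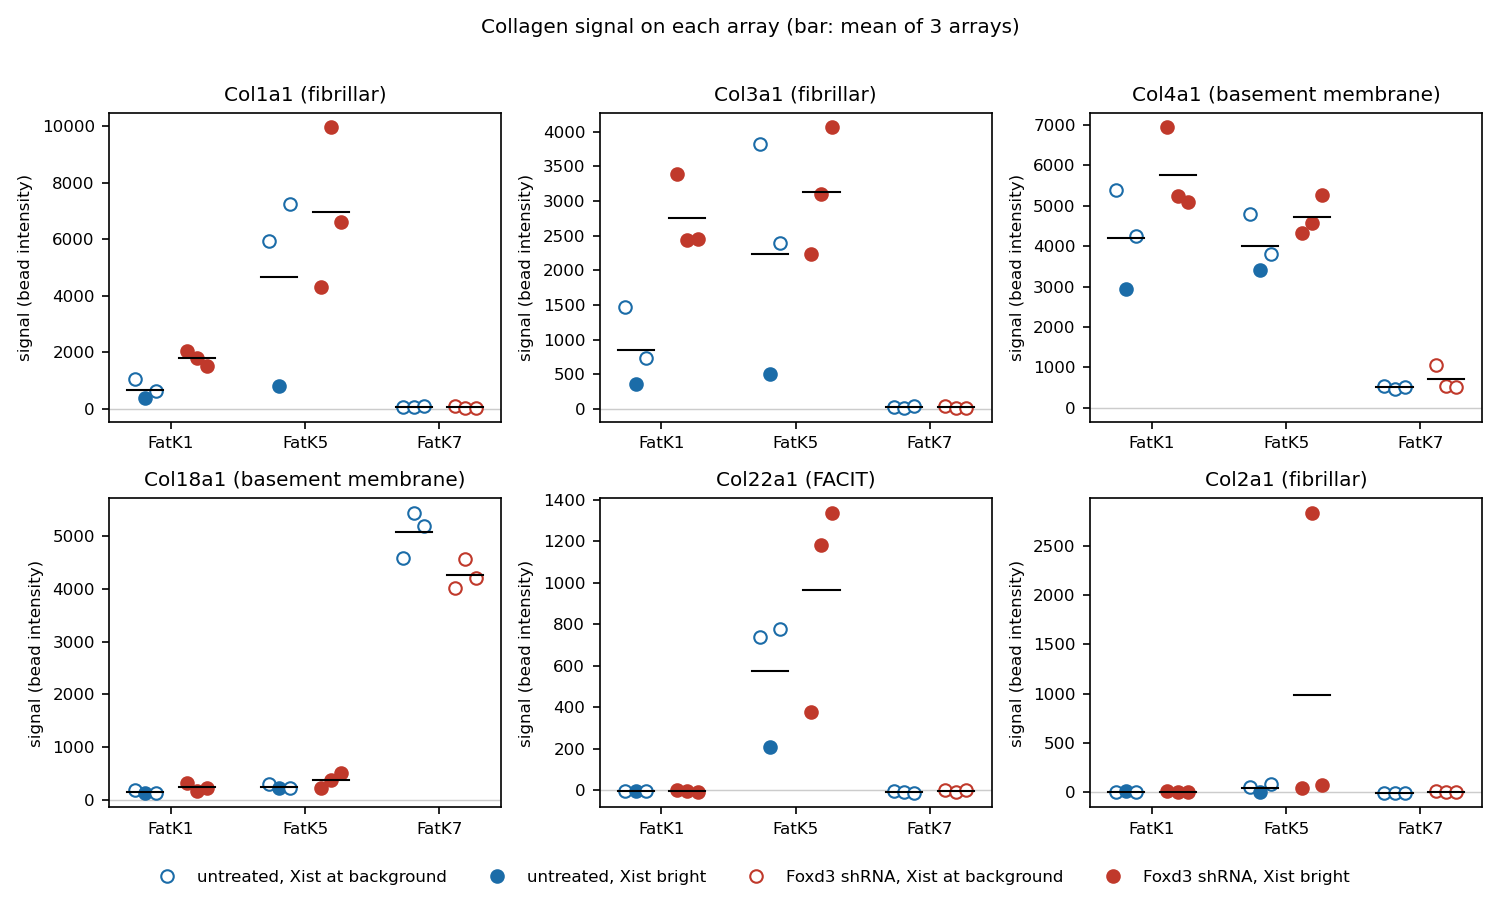
Background-subtracted signal on each of the 18 arrays for Col1a1, Col3a1, Col4a1, Col18a1, Col22a1 and Col2a1, untreated in blue and shFoxd3 in red, with filled points for the 8 arrays with bright Xist and bars at the mean of 3. Col18a1 is highest in FatK7, Col22a1 is seen only in FatK5, and Col2a1 stands at 2837 on 1 shFoxd3 array of FatK5.

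Basement membrane chains showed a different order. Col4a1 and Col4a2, the chains of the ubiquitous type IV network, were about equal in FatK1 and FatK5 and far lower in FatK7. Col4a1 read 5385, 2951 and 4264 on the untreated arrays of FatK1, 4809, 3412 and 3815 in FatK5 and 551, 463 and 509 in FatK7. The arrays of FatK1 and FatK5 overlapped, and those of FatK7 lay below all of them. The log2 difference between FatK5 and FatK1 was -0.08 ± 0.21, with a 95% interval from -0.53 to 0.36 (adjusted p = 0.802). FatK7 differed by -3.61 from FatK1 (adjusted p = 3.15e-11) and by -3.53 from FatK5 (adjusted p = 3.19e-11, limma). Col4a2 had means of 2807 ± 454, 2314 ± 244 and 428 ± 76.4 (SD, n = 3 each), and its differences were -0.36 (adjusted p = 0.153), -3.33 (adjusted p = 3.52e-11) and -2.97 (adjusted p = 1.39e-10).

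Col4a1 and Col4a2 are neighbours that run in opposite directions from a shared start region, and the windows are shown because both messages had the same order of mice. Col4a2 lies at chr8:11312555-11312854 on the plus strand and Col4a1 at chr8:11312777-11313076 on the minus strand, with starts 21 bases apart. Each is written 5′ to 3′ on its own strand, and capitals mark the 78 bases that both windows hold.
Col4a2: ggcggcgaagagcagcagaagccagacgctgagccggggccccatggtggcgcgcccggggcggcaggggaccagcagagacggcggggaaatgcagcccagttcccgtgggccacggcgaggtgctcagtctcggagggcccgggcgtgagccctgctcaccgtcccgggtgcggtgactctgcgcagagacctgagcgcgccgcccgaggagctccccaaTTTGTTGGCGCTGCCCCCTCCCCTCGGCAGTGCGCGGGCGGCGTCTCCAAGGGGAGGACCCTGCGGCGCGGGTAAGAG
Col4a1: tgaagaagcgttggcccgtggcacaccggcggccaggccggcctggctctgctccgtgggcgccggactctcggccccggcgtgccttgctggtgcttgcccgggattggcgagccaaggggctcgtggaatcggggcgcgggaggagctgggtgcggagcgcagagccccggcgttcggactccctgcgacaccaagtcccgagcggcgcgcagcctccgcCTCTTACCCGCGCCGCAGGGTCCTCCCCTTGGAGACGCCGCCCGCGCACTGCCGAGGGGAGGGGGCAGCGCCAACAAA
The windows had 73.7% and 74.0% GC.

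The remaining type IV chains were dimmer. Col4a5, of the specialised type IV network of kidney and smooth muscle, read 154, 138 and 133 in untreated FatK1, 99.9, 44.6 and 58.2 in FatK5 and 7.31 to 25.6 over the 6 arrays of FatK7. It was the 1 collagen lower in FatK5 than in FatK1, by a log2 difference of -1.10 ± 0.24 (adjusted p = 0.00114), and lower again in FatK7 (-2.36 against FatK1, adjusted p = 1.11e-07, and -1.26 against FatK5, adjusted p = 0.00017). Col4a4, of the same specialised network, was detected on 3 arrays with signals of at most 26.9 and passed in no pair.

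The basement membrane zone collagens split. Col15a1, which links basement membranes to the stroma around muscle and vessels, read 242, 129 and 110 in FatK1, 659, 259 and 395 in FatK5 and 29.3, 8.77 and 30.9 in FatK7. Signals of the 3 mice did not overlap, though FatK5 and FatK1 did after normalisation, with differences of 1.32 ± 0.33 (adjusted p = 0.00329), -2.31 (adjusted p = 8.31e-06) and -3.63 (adjusted p = 1.55e-08). Col18a1, its close relative and the source of the fragment endostatin, ran the other way. It read 174, 129 and 119 in FatK1, 294, 213 and 229 in FatK5 and 4582, 5447 and 5185 in FatK7, so every array of FatK7 was far above all arrays of the other mice. FatK7 exceeded FatK1 by 4.41 ± 0.22 (adjusted p = 3.44e-12) and FatK5 by 3.69 ± 0.22 (adjusted p = 3.58e-11). FatK5 exceeded FatK1 by 0.71 (adjusted p = 0.0143), and this call was lost without untreated array 2 (adjusted p = 0.0568) or 3 (0.061) of FatK1 or array 1 of FatK5 (0.0811). A second probe of Col18a1 gave 3.48 and 3.13 for FatK7 against FatK1 and FatK5. Beside it stand the liver marker sums given above, which were at least 48986 in FatK7 and at most 49.6 in the other mice.

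Col18a1 has more than 1 start, and its downstream promoter is known to drive the form made in liver. Both RefSeq windows are shown because of the large difference of FatK7. The probe does not tell which start was used. Window 1, the downstream start, lies at chr10:77113656-77113955 and window 2, the upstream start, at chr10:77166481-77166780, both on the minus strand. Capitals mark CCGCCC, the GC box GGGCGG read on the other strand.
Col18a1 window 1: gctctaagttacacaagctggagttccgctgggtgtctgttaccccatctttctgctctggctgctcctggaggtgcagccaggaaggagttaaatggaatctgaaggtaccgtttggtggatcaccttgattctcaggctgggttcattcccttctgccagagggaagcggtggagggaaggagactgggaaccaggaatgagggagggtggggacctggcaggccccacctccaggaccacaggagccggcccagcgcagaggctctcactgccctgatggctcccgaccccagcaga
Col18a1 window 2: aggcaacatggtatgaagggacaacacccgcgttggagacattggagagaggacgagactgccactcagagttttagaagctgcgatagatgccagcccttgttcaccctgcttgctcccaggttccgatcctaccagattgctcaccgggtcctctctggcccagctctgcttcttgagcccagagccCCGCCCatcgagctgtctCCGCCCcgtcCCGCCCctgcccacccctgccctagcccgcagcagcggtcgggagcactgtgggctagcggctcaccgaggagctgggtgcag
The motif occurred 3 times in window 2 and not in window 1. Col7a1, the anchoring fibril chain, reached 52.8 and was detected on 8 arrays, and Col17a1, the hemidesmosome collagen of epithelia, reached 34.2 and was detected on 6. Neither passed in any pair. Of 8 tested basement membrane chains, 4 were lower and 1 higher in FatK7 than in either other mouse, and 2 were higher and 1 lower in FatK5 than in FatK1. Over all probes, 30.8% were lower and 25.1% higher in FatK7 than in FatK1, and 32.8% and 30.8% than in FatK5. In FatK5, 18.8% were higher and 23.2% lower than in FatK1, near the 2 and 1 of 8.

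Type VI collagen forms beaded microfilaments around cells of stroma, muscle and fat. Col6a1 read 1257, 907 and 876 in untreated FatK1, 3084, 1406 and 3152 in FatK5 and 242, 127 and 214 in FatK7. Signals of the 3 mice did not overlap, though FatK5 and FatK1 did after normalisation, and their log2 differences were 1.15 ± 0.32 (adjusted p = 0.00681), -2.90 (adjusted p = 2.99e-07) and -4.05 (adjusted p = 1.96e-09). Col6a2 read 358, 191 and 234, then 677, 182 and 704, then 15.5, 17.3 and 23.2. FatK1 and FatK5 overlapped for Col6a2, with a difference of 0.72 (adjusted p = 0.177), and FatK7 was lower by -3.16 (adjusted p = 2.22e-06) and -3.88 (adjusted p = 1.1e-07).

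The network collagens Col8a1 and Col8a2 form hexagonal lattices in vessel walls and the cornea. Col8a1 read 114, 40.6 and 67.3 in FatK1 and 158, 118 and 163 in FatK5, and no array of FatK7 detected it. FatK1 was at least 3.04-fold (adjusted p = 0.000473) and FatK5 at least 5.81-fold (adjusted p = 3.47e-06) above FatK7. Col8a2 read 89.4, 46.0 and 101 in FatK5, with means of 7.54 ± 3.47 in FatK1 and 12.7 ± 1.15 in FatK7. It was higher in FatK5 than in FatK1 by 1.79 ± 0.25 (adjusted p = 8.76e-06) and lower in FatK7 than in FatK5 by a difference of -1.62 (adjusted p = 1.43e-05).

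Fibril-associated collagens sit on the surface of fibrils. Col22a1, which marks the junction of muscle and tendon, was seen in FatK5 alone, at 739, 206 and 776 on the untreated and 377, 1182 and 1338 on the shFoxd3 arrays. All 12 arrays of FatK1 and FatK7 were below 1, between -7.54 and -0.499 in FatK1 and between -15.2 and 0.376 in FatK7. FatK5 was at least 19.7-fold above FatK1 (adjusted p = 2.81e-08) and at least 19.4-fold above FatK7 (adjusted p = 9.67e-09). These values rest on the brighter probe alone. The other Col22a1 probe read between -3.01 and 19.6 in FatK5 and did not show this signal. It was detected on 1 array, in FatK5, and did not enter the tests. Skeletal muscle markers and the tendon gene Scx were also highest in FatK5. The tendon and cartilage markers as a list summed to 215 to 344 on untreated arrays of FatK5 and 329 to 465 in FatK7. The part of these cells in the Col22a1 value was not tested.

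Col16a1, a fibril-associated chain of skin and smooth muscle, read 49.6, 29.6 and 29.5 in FatK1, 321, 175 and 469 in FatK5 and 100, 49.0 and 69.7 in FatK7. FatK5 lay above all other arrays, by 2.73 ± 0.36 against FatK1 (adjusted p = 4.67e-06), and FatK7 minus FatK5 was -2.15 (adjusted p = 4.06e-05). Col14a1, which binds fibrils through decorin, was highest in FatK7, at 267, 133 and 191, against 88.7, 48.4 and 31.2 in FatK1 and 125, 79.3 and 105 in FatK5. It exceeded FatK1 by 1.29 ± 0.27 in FatK7 (adjusted p = 0.000527) and by 0.79 in FatK5 (adjusted p = 0.0249), while FatK7 minus FatK5 was 0.49 (adjusted p = 0.124). A second probe of Col14a1 differed by 1.11 for FatK7 minus FatK1 (adjusted p = 0.00562, limma). It gave 0.36 for FatK5 minus FatK1 (adjusted p = 0.407) and 0.75 for FatK7 minus FatK5 (adjusted p = 0.044). With the probe that represented each gene, Col14a1 and Col18a1 were the 2 collagens higher in FatK7 than in FatK1, and Col18a1 the 1 higher than in FatK5. Beside both stand the higher liver sum and the higher Lrat and Reln of FatK7. The stellate gene Des was lower there, and the stellate sum of FatK7 lay below that of FatK5. The part of these cells was not tested.

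The remaining chains were dim. Col26a1 read 44.5, 36.1 and 55.6 in FatK5, higher than in FatK1 by 1.29 ± 0.25 (adjusted p = 0.000342) and at least 2.06-fold higher than in FatK7 (adjusted p = 4.12e-05). Col28a1, a chain with sites in peripheral nerve, was 14.1 to 36.5 over FatK1 and 18.1 to 56.1 over FatK5 and undetected in FatK7, at least 1.46-fold (adjusted p = 0.00311) and 1.4-fold (adjusted p = 0.00442) higher. A second probe of Col28a1, near background, pointed the other way without passing. Of the transmembrane collagens, Col23a1 was lower in FatK7 than in FatK5 (-0.67, adjusted p = 0.00272), and Col13a1 and Col25a1, with signals of at most 23.0, passed in no pair. Col9a1, a coat of cartilage fibrils, passed in none either. Where a gene with a called difference had another tested probe, 34 of 38 comparisons had the same sign, 21 of them passing, and the 4 of opposite sign, for Col28a1 and Col6a2, passed in none.

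The genes that make, process and bind collagen did not share 1 direction. All-probe shares to set beside their counts were 18.8% higher and 23.2% lower for FatK5 minus FatK1, 25.1% and 30.8% for FatK7 minus FatK1, and 30.8% and 32.8% for FatK7 minus FatK5. Among 18 tested genes of collagen synthesis, 4 were higher and 5 lower in FatK5 than in FatK1, 8 higher and 5 lower in FatK7 than in FatK1, and 7 higher and 6 lower in FatK7 than in FatK5. The counts for FatK5 minus FatK1 were near the all-probe shares. P4hb, the protein disulfide isomerase subunit of prolyl hydroxylase, was higher in FatK7 than in FatK1 by 3.93 ± 0.11 (adjusted p = 2.05e-16). Ppib, a prolyl isomerase of the endoplasmic reticulum, and Sec24d, a coat protein for large export vesicles, were higher by 2.10 (adjusted p = 3.79e-10) and 2.48 (adjusted p = 3.97e-08). Serpinh1, the chaperone dedicated to procollagen, had a difference of -2.70 ± 0.25 (adjusted p = 2.28e-08). Serpinh1 was thus lower in the mouse with the lowest type I chains, and P4hb, Ppib and Sec24d were higher there.

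Of 7 tested processing and crosslinking genes, 2 were higher and 4 lower in FatK7 than in either other mouse, and 2 were higher and none lower in FatK5 than in FatK1. The 2 of 7 higher were near the all-probe shares of 25.1% and 30.8%. Lox, the enzyme that crosslinks collagen and elastin, differed by -3.59 ± 0.40 between FatK7 and FatK1 (adjusted p = 2.65e-07), its relative Loxl1 by -1.52 (adjusted p = 2.43e-05) and the enhancer Pcolce2 by -2.23 (adjusted p = 8.42e-07). Bmp1, which cleaves the procollagen tail, was higher by 2.99 ± 0.28 (adjusted p = 2.18e-08). Of 7 tested receptors, 2 were higher and 2 lower than in FatK1, in FatK5 as well as in FatK7, and 3 were higher and 2 lower in FatK7 than in FatK5, most of them near the all-probe shares of 18.8% to 32.8%. Itga11, the fibrillar collagen integrin of fibroblasts, was higher in FatK5 than in FatK1 by 2.13 ± 0.21 (adjusted p = 1.08e-07) and lower in FatK7 than in FatK5 at -3.22 (adjusted p = 1.15e-10). Itga1, the type IV collagen integrin, was lower in FatK5 than in FatK1 at -2.59 (adjusted p = 5.34e-10), its partner Itgb1 differed by -0.63 (adjusted p = 0.0132), and the inhibitory leukocyte receptor Lair1 was higher in FatK7 than in FatK1 by 0.74 (adjusted p = 1.08e-05).

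Among 11 tested genes of collagen degradation, 6 were higher and 0 lower in FatK5 than in FatK1, 2 higher and 4 lower in FatK7 than in FatK1, and 1 higher and 5 lower in FatK7 than in FatK5. Over all probes, 18.8% were higher in the first comparison, and 25.1% higher and 30.8% lower in the second, near the 2 and 4 of 11. The gelatinase Mmp2 differed by 1.83 ± 0.21 (adjusted p = 5.96e-07), -2.05 (adjusted p = 7.89e-08) and -3.88 (adjusted p = 5.44e-12) in these comparisons, and its inhibitor Timp2 by 1.68, -2.03 and -3.71. Timp3 was lower in FatK7 than in FatK1 at -2.05 (adjusted p = 1.1e-09), whereas Mmp14, which activates Mmp2, was higher by 1.99 (adjusted p = 2.61e-07). Of 9 tested matrix partners, 7 were higher in FatK5 than in FatK1 and none lower, 2 were higher and 4 lower in FatK7 than in FatK1, and 1 was higher and 7 lower in FatK7 than in FatK5. Sparc, a collagen-binding matrix protein, Eln, elastin, and Tnxb, a tenascin on fibrils, were lower in FatK7 than in FatK1 at -4.06, -2.27 and -1.90, and the plasma and stromal protein Fn1 was higher by 3.54 ± 0.38 (adjusted p = 1.66e-07).

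Of 11 laminins and other basement membrane partners, 3 were higher and 3 lower in FatK5 than in FatK1, 1 was higher and 9 lower in FatK7 than in FatK1, and 2 were higher and 8 lower in FatK7 than in FatK5, against 30.8% and 32.8% of all probes lower in the comparisons of FatK7 with FatK1 and FatK5. The laminin chains Lamb1, Lamb2 and Lamc1 differed by -2.46 (adjusted p = 5.83e-08), -2.56 (adjusted p = 1.34e-11) and -1.78 (adjusted p = 3.86e-08) between FatK7 and FatK1, and the proteoglycan perlecan, Hspg2, by -2.31 (adjusted p = 3.73e-09). These partners of type IV collagen were thus lower in the same mouse as Col4a1 and Col4a2.

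The second comparison, between shFoxd3 and untreated cells, asked whether the hairpin changed collagen message. No collagen passed it. Across the 3 mice, with each arm of a mouse reduced to its mean profile, 0 of 31 collagens were called, against 0.105% of all probes (26 probes, with 1423 at an unadjusted p under 0.05, limma). Within mice, 0 of 31 were called in FatK1, FatK5 and FatK7, against 0.737%, 0.25% and 0.83% of all probes, and 0 of 31 in the interaction of hairpin and mouse, against 0.218%. The fitted changes were more often above 0 than below, for 27 of 31 collagens across mice, 21 in FatK1, 28 in FatK5 and 19 in FatK7. Their medians were 0.24, 0.13, 0.36 and 0.03 on the log2 scale, and those of all probes -0.01, -0.02, 0.00 and 0.00. The genes are not independent of each other.

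**Figure D4:**
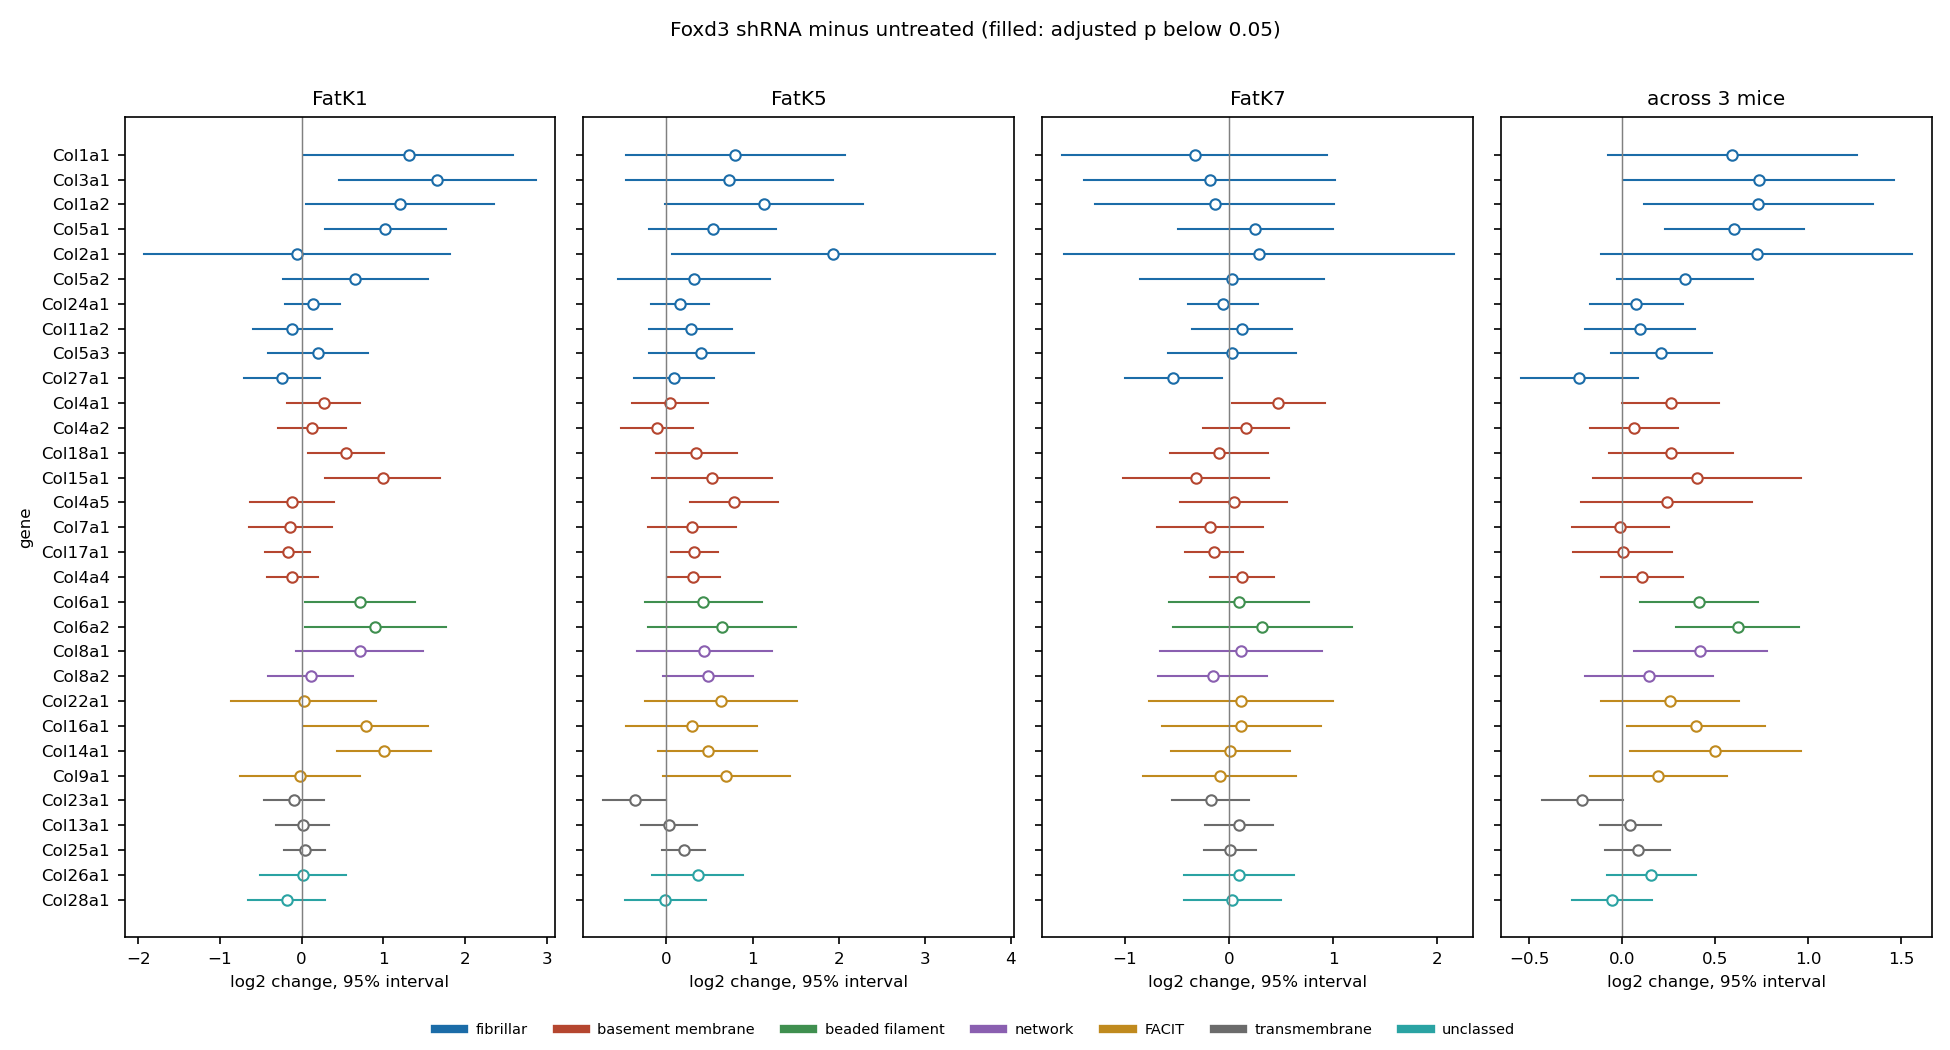
Log2 change, shFoxd3 minus untreated, of the 31 tested collagens within FatK1, FatK5 and FatK7 (n = 3 arrays per arm) and across the 3 mice, with 95% confidence intervals. No point passed an adjusted p of 0.05, and Col1a1, Col1a2, Col3a1 and Col5a1 sit above 0 in FatK1 and FatK5 with wide intervals, while Col11a2 and Col27a1 lie below 0 in FatK1.

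In FatK1, 4 of the 10 tested fibrillar chains, Col1a1, Col1a2, Col3a1 and Col5a1, had higher signals on every shFoxd3 array than on any untreated one. Col1a1 read 2034, 1810 and 1499 with the hairpin, a mean of 1781 ± 269 (SD, n = 3), against 1036, 361 and 609 untreated. Col3a1 read 3382, 2438 and 2453, a mean of 2758 ± 540, against 1468, 367 and 740. In neither gene did the arms overlap, and untreated array 2 was the lowest of the 6 arrays. The change of Col1a1 was 1.31 ± 0.61 (SE; 95% interval 0.03 to 2.59, adjusted p = 0.486) and of Col3a1 1.66 ± 0.57 (0.45 to 2.87, adjusted p = 0.279). Col5a1 read 985, 544 and 642 against 443, 228 and 279, a change of 1.02 ± 0.35 (adjusted p = 0.277). The smallest adjusted p of a collagen in FatK1 was 0.112, for Col14a1, which read 155, 105 and 137 against 88.7, 48.4 and 31.2, a change of 1.01 ± 0.27. It passed without untreated array 1 (adjusted p = 0.0123), and also with the array number as a block. A second probe of Col14a1 changed by 0.43 (adjusted p = 0.745, limma), with overlapping arms. On the normalised log2 scale, in 9 of 31 collagens all shFoxd3 arrays of FatK1 exceeded all untreated ones, against 6.34% of all probes, and in 0 they all lay below, against 7.74%. The 9 were Col1a1, Col1a2, Col3a1, Col5a1, Col6a1, Col6a2, Col14a1, Col15a1 and Col16a1. The summed signal of the 7 fibroblast markers was 12131 to 14478 with the hairpin and 7283 to 8606 without. None of the 7 passed, and 5 had changes above 0, led by Lum at 1.34 (adjusted p = 0.133). Vim and Pdgfrb had changes of -0.31 and -0.17. In FatK1, 4 of 5 skeletal muscle markers were called higher, against 144 of 24817 probes. The other, Acta1, changed by 4.77 and did not pass (adjusted p = 0.0598, limma). The skeletal muscle sums were 11951 to 41926 against 220 to 10695, the highest untreated value on array 2. The brown fat sum was 50419 to 53234 against 28975 to 49144. The part of these cells in the collagen values was not tested.

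In FatK5 the arms overlapped for most chains. Col1a1 read 4319, 9977 and 6627 with the hairpin, a mean of 6974 ± 2845, against 5922, 809 and 7257, a change of 0.80 ± 0.61 (adjusted p = 0.714). Only untreated array 2 stood apart from the other 5. Col3a1 read 2232, 3094 and 4066 against 3823, 507 and 2395, a change of 0.73 (adjusted p = 0.728). On the normalised scale, arms without overlap were found for 3 of 31 collagens, Col4a5, Col11a2 and Col4a4, all higher with the hairpin, against 6.1% of all probes. Col4a5 read 122, 148 and 137 against 99.9, 44.6 and 58.2 (0.79 ± 0.24, adjusted p = 0.228), and it passed without untreated array 1 (adjusted p = 0.0242). In FatK7 the type I chains stayed low in both arms. Col1a1 read 86.2, 28.7 and 28.9 with the hairpin and 70.8, 42.9 and 81.5 without, a change of -0.33 ± 0.61 (adjusted p = 0.991). On the normalised scale, arms without overlap numbered 2 higher, Col4a1 and Col2a1, against 8.67% of probes, and 2 lower, Col8a2 and Col27a1, against 9.09%. Col4a1 read 1070, 534 and 519 against 551, 463 and 509 (0.48 ± 0.21, adjusted p = 0.479), and before normalisation its arms overlapped, with array 1 alone clearly higher. Col18a1, bright in this mouse, read 4013, 4572 and 4208 with the hairpin, a change of -0.10 with a 95% interval from -0.57 to 0.37.

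Across mice, the largest changes were those of Col3a1 (0.73 ± 0.31), Col1a2 (0.73 ± 0.26) and Col2a1 (0.72), followed by Col6a2 (0.62 ± 0.14), Col5a1 (0.60 ± 0.16) and Col1a1 (0.59 ± 0.28, 95% interval -0.08 to 1.26), n = 3 mouse labels, all with an adjusted p of 0.79 or above. Without FatK7, Col1a2 passed at 1.17 (adjusted p = 0.0224). Type IV chains changed less, Col4a1 by 0.26 ± 0.11 and Col4a2 by 0.06. Of the genes that make, process or bind collagen, 1 passed within a mouse and none across mice. Itga11 rose in FatK1, from 49.4, 51.7 and 25.98 to 152, 90.9 and 79.1, by 0.97 ± 0.21 (adjusted p = 0.0364).

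The size of these changes depended on untreated array 2. On the normalised scale that array was the lowest of the 6 for 14 of 31 collagens in FatK1, against 23.1% of all probes, for 20 of 31 in FatK5, against 22.4%, and for 8 of 31 in FatK7, against 15.7%. In FatK7 no array was bright for Xist. All shFoxd3 arrays exceeded untreated array 2 for 18, 24 and 10 collagens in FatK1, FatK5 and FatK7, against 30.4%, 30.2% and 25.6% of probes. They exceeded both untreated arrays 1 and 3 for 10, 5 and 2 collagens, against 11.3%, 11.2% and 12.7%. The low array in FatK1 and FatK5 thus carried the same Xist status as the hairpin arrays, and the 2 others the opposite status.

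With Xist status as a term in the fit, 11 of 31 collagens rose with the hairpin in FatK1, against 4.86% of all probes changed and 2.48% higher, and 8 of 31 rose in FatK5, against 4.94% and 2.61%. In FatK7, where the status did not vary, 0 were called, against 0.935%. In FatK1 the change of Col3a1 became 3.19 ± 0.33 (adjusted p = 1.9e-05), of Col1a1 2.86 ± 0.40 (adjusted p = 0.000574), of Col1a2 2.41 (adjusted p = 0.00656) and of Col5a1 1.82 (adjusted p = 0.00157). The others were Col5a2, Col6a1, Col6a2, Col14a1, Col15a1, Col16a1 and Col4a1, between 0.73 and 1.88. In FatK5, Col1a1 became 2.35 (adjusted p = 0.00298), Col1a2 2.33 (adjusted p = 0.0077) and Col3a1 2.26 (adjusted p = 0.0011), joined by Col5a1, Col5a2, Col6a2, Col4a5 and Col8a2 at 0.94 to 1.62. Across mice, 1 collagen passed with this term, Col4a1 at 0.54 ± 0.11 (adjusted p = 0.0281), against 0.282% of all probes. In the interaction 4 passed, Col1a1, Col1a2, Col3a1 and Col15a1, against 2.7%. In the fit within FatK1 and FatK5, 1 Xist difference was shared by both mice and estimated from their untreated arrays. Only 1 untreated array per mouse had the status of the hairpin arrays. The change in each mouse thus also draws on the other mouse's arrays and assumes an equal Xist difference. Between the 8 arrays with bright Xist alone, an alternative chosen after seeing the data, 7 collagens rose in FatK1, against 2.0% of all probes changed and 1.1% higher, and 10 in FatK5, against 3.36% and 1.83%, with the single untreated array assumed to vary like the other groups.

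**Figure D5:**
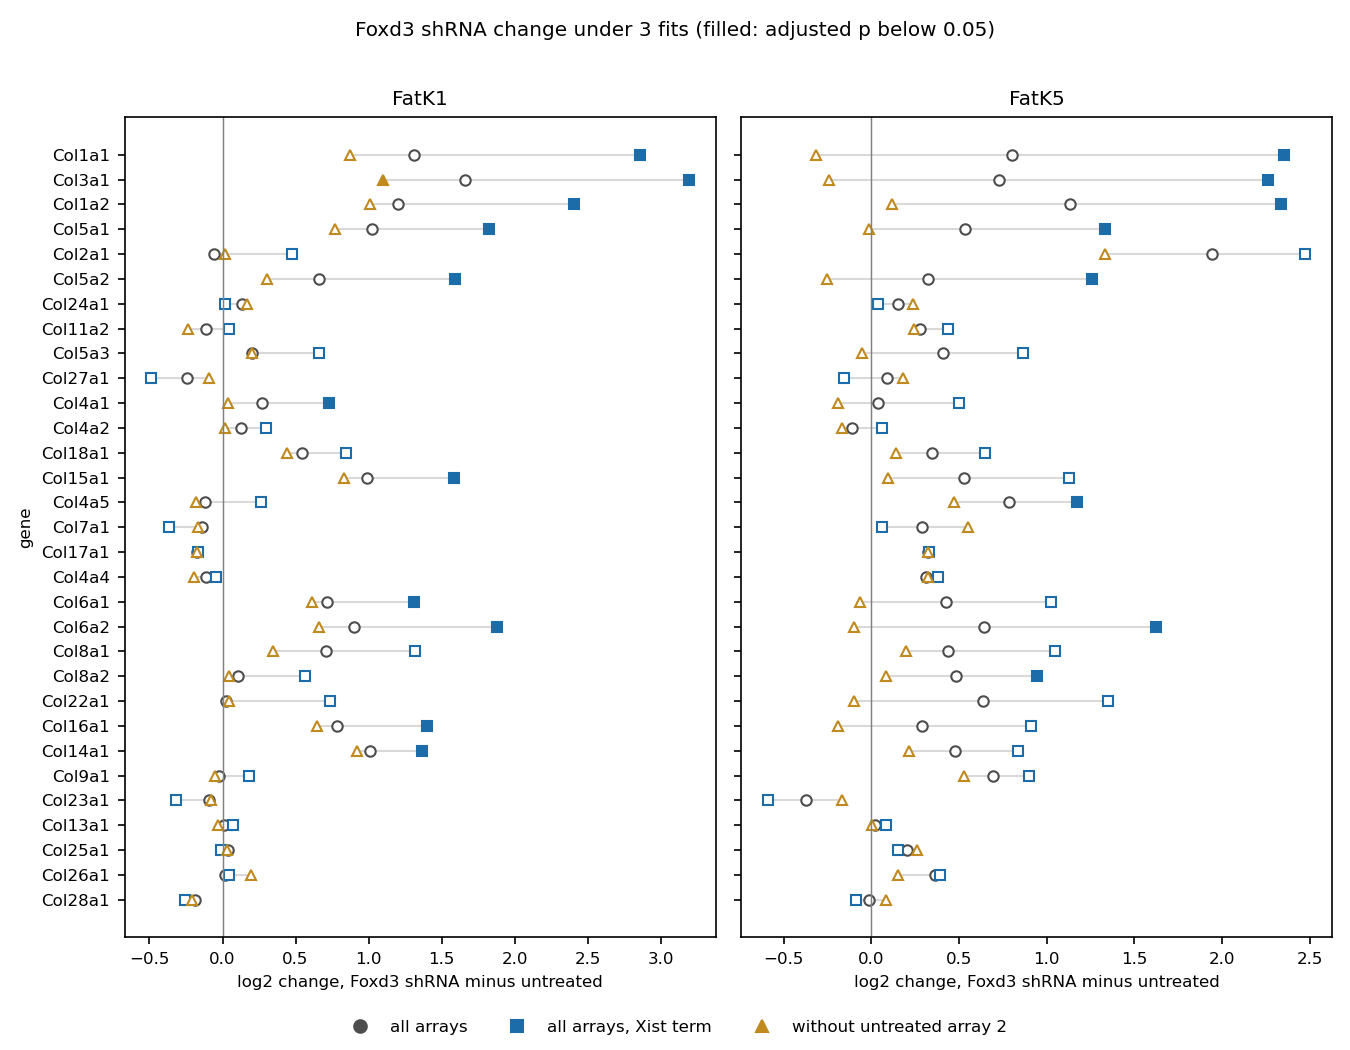
Log2 change, shFoxd3 minus untreated, of the collagens in FatK1 and FatK5 fitted on all arrays (circles), with Xist status as a term (squares) and without untreated array 2 (triangles), filled where the adjusted p was below 0.05. For Col1a1, Col1a2 and Col3a1 the squares lie furthest right and the triangles furthest left, at 2.86 and 0.88 for Col1a1 in FatK1.

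Without untreated array 2 of FatK1 and FatK5 the changes shrank. In FatK1, Col1a1 stood at 0.88, Col1a2 at 1.01 and Col3a1 at 1.10 ± 0.26, the 1 collagen that passed (adjusted p = 0.0488); the fibroblast gene Lum passed too, at 0.98 (adjusted p = 0.0378). In FatK5 none passed, and Col1a1 was at -0.32, Col3a1 at -0.24, Col1a2 at 0.12 and Col5a1 at -0.01. Across mice the values were 0.08 for Col1a1, 0.22 for Col3a1 and 0.33 for Col1a2. The sign of Col1a1 and Col3a1 in FatK5 thus depended on that array. Col1a2 kept its sign at 0.12, a value that did not pass either, so no difference between the chains can be read from it. Whether Xist status or the hairpin goes with the difference cannot be told apart beyond these 2 untreated arrays. With the Xist term 4 of 7 fibroblast markers were called higher in FatK1 and 3 of 7 in FatK5, against 2.48% and 2.61% of all probes. Among them was the fibril-binding proteoglycan Lum, at 2.28 (adjusted p = 7.38e-05, limma) and 1.77 (adjusted p = 0.00115). Lum read 99.5 on untreated array 2 of FatK1 against 238 and 153 on the other 2, and 364 to 563 with the hairpin. Of 5 endothelial markers, 1 passed in each mouse, against 4.86% and 4.94% of all probes. It was Pecam1, which was lower at -0.57 (adjusted p = 0.0415, limma) and -0.55 (adjusted p = 0.0484). Kdr had changes of 0.50 and 0.51 that did not pass. The part of fibroblasts in the collagen values was not tested.

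Several cartilage transcripts were highest on 1 array. Col2a1 read 2837 on shFoxd3 array 2 of FatK5 and between 8.17 and 83.6 on the other 5 arrays of that mouse, and it stayed below 12 in FatK1 and FatK7. Its other probes read 1895 and 1549 on the same array. Col9a1 read 167 there, against 13.7 to 39.2 on the other FatK5 arrays, and Col9a2 and Col10a1, chains of cartilage fibrils and of growth plate cartilage, were detected on that array alone, at 127 and 72.7. Other cartilage genes, named after their values were seen, were mixed. Snorc, Acan and Hapln1 were detected on it alone, at 1037, 91.8 and 49.3. Chad read 1595 there but was detected on 7 arrays, with 84.7 to 520 on the other FatK5 arrays, and it was higher in untreated FatK5 than in FatK1 by 3.62 (adjusted p = 8.97e-06). Comp read 401 there and was detected on 6 arrays, and Matn4 read 31.3 and was detected on 2. The change of Col2a1 in FatK5, 1.94 ± 0.89, did not pass (adjusted p = 0.443), and across mice it moved from 0.72 to 0.13 without that array.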

How the data were processed

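The authors' deposited non-normalised table held, per probe, the signal intensity with its detection p-value. Background had been subtracted from the intensity, which was below 0 for 23.2% to 30.9% of an array's probes. Rescaled intensities in the deposited series matrix were used in an alternative. What program made them is not given in the sources used here. Symbols came from the platform annotation, and the 41 collagen symbols matched RefSeq.

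The function neqc of limma 3.58.1 (R 4.3.3, statmod 1.5.0) estimated the remaining background through the detection p-values, quantile normalised the arrays and took log2 with an offset of 16; the deposited values were not on a log2 scale. Of 45281 probes, 24817 were tested, those detected (p-value under 0.05) on 3 or more arrays. The hairpin effect across mice was fitted on 6 mean profiles with treatment and mouse as terms, n = 3 mouse labels. With the term for Xist status it was fitted on the 18 single arrays instead. Effects within mice, their interaction and contrasts of untreated mice were fitted on 18 arrays with 6 group means and 1 shared spread. Tests were two-sided with a trended prior variance, with Benjamini-Hochberg adjustment over the 24817 probes and a threshold of 0.05. Sums and arrays' values are deposited signals, and overlap was counted on normalised values. The number of arrays limits the precision. For a gene detected on no array of a group, a lower bound set the brighter group's mean against, on each dim array, the higher of the lowest detected signal and the gene's own, on normalised values.

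Every collagen was named, and up to 4 genes of each list with the smallest p-values. The members and lists were chosen with earlier results of these data known. Alternatives were other background corrections and offsets, other filters and probes, the series matrix, a term for Xist status, arrays or mice left out, array numbers as blocks, and groups fitted alone. The fits were tested on simulated data. Further steps used matplotlib 3.10.9, numpy 2.4.6, pandas 2.3.3 and Python 3.11.15. Promoter windows came from RefSeq, build GRCm38.p6; proteins were not analysed here.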

Additional observations from a re-analysis of the deposited data

How the results depend on the processing

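Single-gene results were followed for Col1a1, Col1a2, Col3a1, Col4a1, Col5a1, Col6a1, Col15a1 and Col18a1 alone. No called difference of these genes reversed its direction under the alternatives run. Of their results, 434 kept their direction and side of the threshold, 7 lost it and 2 gained it. The counts of collagens called kept within 1.5 times their value in 131 of 142 settings. The 11 others all concern the hairpin, where the count was 0. With a term for Xist status it was 11 in FatK1, 8 in FatK5, 1 across mice and 4 in the interaction. With untreated array 2 of FatK1 and FatK5 left out it was 1 in FatK1, Col3a1. On the arrays with bright Xist alone, an alternative chosen after seeing the data, it was 7 in FatK1 and 10 in FatK5.

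Leaving out 1 array at a time gave 0 to 1 in FatK1 (Col14a1, without untreated array 1), 0 to 1 in FatK5 (Col4a5, without untreated array 1), 0 to 0 in FatK7 and 0 to 0 in the interaction, and leaving out 1 mouse gave 0 to 1 across mice (Col1a2, without FatK7). Between untreated mice the counts ranged from 10 to 18 for FatK5 minus FatK1, 15 to 17 for FatK7 minus FatK1 and 20 to 21 for FatK7 minus FatK5 when 1 array was left out, and from 10 to 15, 15 to 18 and 21 to 23 under the other settings. The 7 lost calls among the genes followed singly were all of FatK5 minus FatK1, for Col18a1 (5), Col1a1 (1) and Col6a1 (1). Lost calls of other collagens show only in the counts above. The cause was not tested.

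The array numbers were not taken as pairs. Deviations of same-numbered arrays of the 2 arms correlated between -0.0153 and 0.26, 6 of 9 over 0.1, and 14 of 18 arrays correlated best with their own number. With the number as a replicate block, 1 collagen was called in FatK1, Col14a1, and no other hairpin count changed; between untreated mice the counts were 15, 15 and 22. The mouse label was a block in the fit across mice, and without it the count there stayed at 0. Many dim collagens lie near background, where the precision is set by the few arrays and small differences were not detectable.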
